A study of Mus musculus with 10 samples.

Results

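The MAP kinase cascade and its dual-specificity phosphatases were examined as targets of N6-methyladenosine (m6A) in the mouse brain, with and without the m6A writer subunit Mettl14. Members were all genes of either m6A peak list whose name begins with Map2k, Map3k or Map4k and a number, Mapk and a number, Mapkapk, or Dusp and a number. This choice rested on the name and on a peak in either list, and was made with earlier results of these data known. It found 42 of the 8516 genes in the lists: 26 kinases of the cascade, 4 scaffold or other genes that share the Mapk prefix, and 12 DUSP genes.

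In m6A-seq, fragmented RNA is pulled down with an antibody against the modified base, and stretches with more reads than the input library predicts become peaks. Polyadenylated RNA came from cortex and hippocampus at postnatal day 5, from wild-type (WT) animals with 3 IP and 3 input libraries, and from Mettl14 knockout (KO) animals with 2 IP and 2 input libraries. The knockout was driven by Nestin-Cre, a recombinase under a promoter of neural stem and progenitor cells, and microglia lie outside the lineage of those cells. Whether WT animals carried the recombinase is not stated. A medium for cultured cells is given under growth conditions although the tissue is named as cortex and hippocampus, so the labels leave the direct source of the RNA unclear.

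The authors deposited 1 consensus list per genotype, 15009 peaks in WT and 3673 in KO once entries that overlap were merged. No value per library was used here. WT and KO can therefore be set side by side but not tested against a spread between animals, and the depth is unknown. Intervals are Wilson 95% intervals, which express how few peaks or genes were counted and nothing else. A peak also needs an expressed gene and enough reads. A missing peak can thus be a missing methyl mark, too little RNA, or too few reads or libraries, of which KO had fewer. In these bulk samples fewer cells of a type and less RNA per cell cannot be told apart. Of the 10 cortical and hippocampal marker genes fixed for a check of the tissue, 10 carried a WT peak, as did 5 of 8 neuronal, 5 of 5 astrocytic, 5 of 5 oligodendrocytic, 3 of 5 microglial and 4 of 5 vessel markers. A retained peak, as defined below, was found in 6, 5, 3, 0, 1 and 1 of them, in this order. For comparison, 34.2% of all protein-coding genes were in the WT list, and 20.6% of all genes in that list kept a peak. The latter value lay below the intervals for cortical and hippocampal (31.3 to 83.2%), neuronal (56.6 to 100%) and astrocytic markers (23.1 to 88.2%). It lay inside those for oligodendrocytic (0 to 43.4%), microglial (6.15 to 79.2%) and vessel markers (4.56 to 69.9%). The part of these other cell types in the results was not tested. The background of 20.6% was not matched for the number of WT peaks per gene. Over all genes, the share with a retained peak went from 10.5% with 1 WT peak to 46.0% with 4 or more. Mettl14 carried 1 WT peak and no KO peak.

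In the cascade, MAP4 kinases and MAP3 kinases receive signals from small GTPases, receptors and stress, MAP3 kinases phosphorylate MAP2 kinases, and these phosphorylate the MAP kinases themselves: ERK, JNK, p38 and ERK5. Scaffolds hold the tiers together, and DUSPs remove the activating phosphates, many of them being transcribed as feedback once a MAP kinase is active. In the developing brain, ERK signalling is known for its part in neurogenesis and gliogenesis, and JNK signalling for its part in axon growth, neuronal migration and neuronal death. The METTL3-METTL14 complex methylates adenosines in short consensus sites with GGAC as their commonest core.

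More genes of the family had a listed peak in WT than in KO, as was so over all protein-coding genes. Of the 76 protein-coding genes of the mouse annotation that match the name rule, 41 had at least 1 WT peak, which is 53.9% (interval 42.8 to 64.7), while 34.2% of all protein-coding genes did. A KO peak was listed for 13 of the 76, 17.1% (10.3 to 27.1), beside 12.2% of all protein-coding genes. WT peaks numbered 76 over 20935 exonic bases, and KO peaks 17 over 3334. The WT list was thus 4.47 times as long in peaks and 6.28 times in bases, against 4.09 and 6.02 times for the lists as a whole, so the family differed between the lists by about as much as all genes together.

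A WT peak is called retained where a KO peak on its strand shared 1 or more exonic bases with it. Of the members' 76 WT peaks, 12 were retained, 15.8% (9.27 to 25.6), which is near the background of 12.9% over all WT peaks. At least 1 retained peak was found in 9 of the 41 genes, 22.0% (12 to 36.7), next to 20.6% of all genes with a WT peak. Both intervals hold the value of the lists as a whole. Any KO peak, retained or not, was found in 12 of the 41 genes, 29.3% (17.6 to 44.5), beside 27% of all genes with a WT peak. The other 29 had WT peaks and no KO peak, 3 of those with a KO peak (25%, beside 23.8% of all genes with peaks in both lists) had it only at another place of the gene, and Mapk8 had a KO peak alone.

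**Figure D1:**
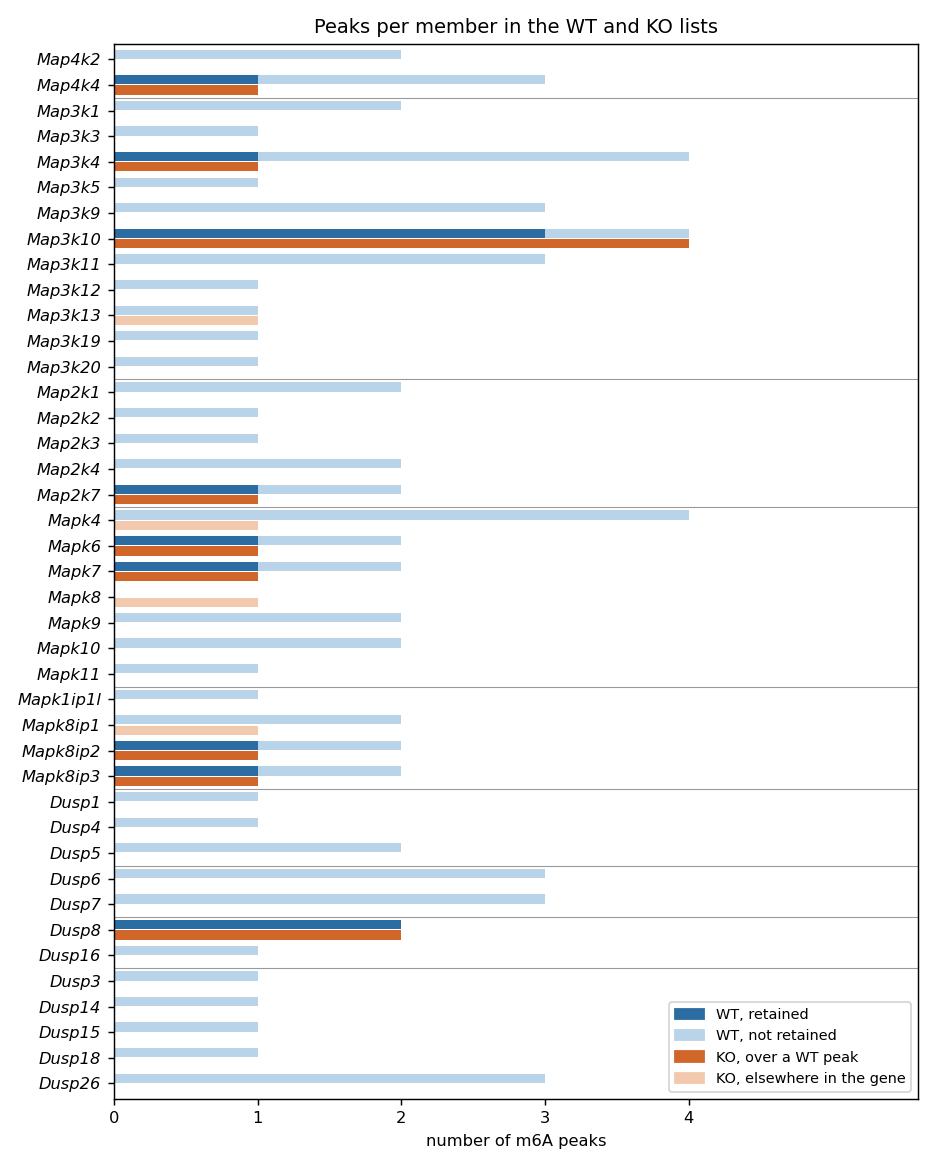
Number of m6A peaks (x axis) per gene (y axis), with grey lines between roles, from MAP4 kinases at the top to atypical DUSPs at the bottom. Blue bars are WT peaks, dark where retained, and orange bars are KO peaks, dark where they lie over a WT peak. Of the 41 genes plotted, 13 have an orange bar, and Map3k10, with 4, has the most KO peaks.

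At the top of the cascade, both MAP4 kinase genes with a peak had it in WT, and 1 of them also had a KO peak. Map4k4, a kinase that acts on JNK signalling and the cytoskeleton, had 3 WT peaks on chromosome 1. The first, chr1:39986700-40000677 on the plus strand, spread 688 exonic bases over 6 blocks. It was retained by a KO peak, chr1:39986670-39999938, of 628 bases over 5 blocks, and 598 bases were shared. Both peaks carried a p-value listed as 0, too small to be held, so their strength has no order among the strongest peaks. This was the most complete carry-over among the members with peaks that cross exon borders, since 86.9% of the WT bases were covered. The other 2 Map4k4 peaks, of 121 and 420 bases with midpoints 1553 and 1225 bases before the gene end, had no KO counterpart. They lay at chr1:40024697-40024817 and chr1:40024876-40025295. Map4k2 had 2 WT peaks of 61 bases each, chr19:6343816-6343876 and chr19:6355021-6355081 on the plus strand, and none in KO. Its peaks were weak, stronger than 3.09% and 5.46% of the WT list.

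The MAP3 kinases formed the largest tier, with 22 WT peaks in 11 of 19 protein-coding genes and 4 retained peaks in 2 of them. The retained share was 18.2% (7.31 to 38.5), beside 12.9% of all WT peaks. Map3k10 encodes the mixed lineage kinase MLK2, which activates JNK through its MAP2 kinases. It had 4 WT peaks over 1823 bases on chromosome 7 (27656375 to 27674630, minus strand) and 4 KO peaks over 631 bases, and 3 WT peaks were retained. No other member had more than 2 KO peaks. The widest WT peak, chr7:27656554-27658314, held 896 bases in 2 blocks, with its midpoint 1491 bases before the gene end. In KO, 2 separate peaks of 180 and 91 bases lay inside it, and together covered 30.2% of it. The second WT peak, chr7:27658879-27659136, had 180 bases, of which 120 were shared with a KO peak that reached further, over 3 blocks to base 27661556. The peak of 657 bases with its midpoint 914 bases after the gene start, chr7:27673388-27674044, held a KO peak of 180 bases in its interior. The one Map3k10 peak without a KO counterpart was the narrowest, with 90 bases, and the weakest of the 4.

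Map3k4 encodes MEKK4, which is upstream of p38 and JNK and is needed for neural tube closure and neuronal migration. Its 4 WT peaks on chromosome 17 (12227621 to 12318796, minus strand) fell into 3 neighbours in the middle of the gene and 1 of 180 bases with its midpoint 328 bases before the gene end. The widest, chr17:12270917-12271455, had 539 bases and held a KO peak of 90 bases, or 16.7% of it. That KO peak, chr17:12271156-12271245, was stronger than 17.4% of the KO list, and its p-value recurs on 21 KO peaks. The strongest Map3k4 peak, at the gene end, was not retained.

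Map3k13 encodes the leucine zipper kinase LZK, and Map3k12 its relative DLK, both of them regulators of the axonal injury response. Map3k13 had 1 WT peak, chr16:21930200-21930380, and 1 KO peak, chr16:21921632-21921812, each of 181 bases. Their width was the same and their place was not, since 8387 bases lay between them. Map3k12 had 1 WT peak of 540 bases in 2 blocks and no KO peak, although it was wider than the median retained peak of the members, at 464.5 bases.

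The other MAP3 kinases had WT peaks only. Map3k9 (MLK1) had 3 peaks over 842 bases and Map3k11 (MLK3) 3 over 632, so the 3 mixed lineage kinases of this group had 10 WT peaks, of which those of Map3k10 alone had KO counterparts. Map3k1, which encodes MEKK1, had 2 peaks of 150 and 151 bases. Single peaks were listed for Map3k3 (241 bases), the stress kinase gene Map3k5 (ASK1, 211 bases in 2 blocks), Map3k20 (151 bases), which encodes the ribosome stress sensor ZAK, and Map3k19 (91 bases). No peak was listed for Map3k2, Map3k6, Map3k7, Map3k8, Map3k14, Map3k15, Map3k21 or Map3k7cl.

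Among the MAP2 kinases, 5 of 7 genes had 8 WT peaks, and Map2k7 kept the single retained one. That is 12.5% of the 8 (2.24 to 47.1), beside 12.9% of all WT peaks. Map2k7 encodes MKK7, which is specific for JNK. Its peaks, of 270 and 359 bases, lay on chromosome 8 (4238740 to 4247897, plus strand). The second, chr8:4246674-4247032, was retained by a KO peak of 300 bases, chr8:4246733-4247032, which ended on the same base and covered 83.6% of it. The KO peak was stronger than 85.9% of the KO list. The other activator of JNK in this tier, Map2k4 (MKK4), had 2 WT peaks of 240 and 478 bases, with midpoints 1670 and 2177 bases before the gene end, and no KO peak. They lay at chr11:65689795-65690034 and chr11:65690183-65690660 on the minus strand, the second with a p-value listed as 0. A WT peak as strong as the list can record was thus no guarantee of a KO peak. Map2k1 and Map2k2, which encode the ERK activators MEK1 and MEK2, had 2 WT peaks of 180 and 91 bases and 1 of 269 bases, with none in KO. Map2k3, an activator of p38, had 1 of 90 bases. Map2k5 and Map2k6 had no peak in either list.

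The MAP kinases themselves had 14 WT peaks in 7 of 13 genes, and 4 KO peaks in 4 genes. Of the 14 WT peaks, 2 were retained, 14.3% (4.01 to 39.9), beside 12.9% of all WT peaks. Mapk7 encodes ERK5, a MAP kinase with a long tail that acts in transcription. Its stronger peak, chr11:61490181-61490641 on the minus strand, had 358 bases in 2 blocks. A KO peak of 210 bases, chr11:61490300-61490612, lay wholly inside it and was stronger than 93.3% of the KO list. The neighbouring WT peak of 299 bases, 119 bases away, was not retained. Mapk6 encodes the atypical kinase ERK3, and its KO peak was wider than the WT peak it lay over. The retained WT peak, chr9:75388634-75388754, had 121 bases, and the KO peak began on the same base and ran for 181, to 75388814. The stronger Mapk6 peak of 359 bases, in the middle of the gene and stronger than 90.8% of the WT list, had no KO counterpart.

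Mapk4, which encodes the related atypical kinase ERK4, had 4 WT peaks over 2308 bases on chromosome 18 (73928486 to 74065434, minus strand), the most peak length of any member. The longest, chr18:73969919-73971146, held 1228 bases, and the other 3 lay together in the last stretch of the gene, from 73929205 to 73930971. None was retained, and the only KO peak, of 91 bases, chr18:73940878-73940968, lay 9906 bases from the nearest WT peak. Its p-value, 5.4e-10, recurs on 76 KO peaks, more than any other nonzero p-value of that list.

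The 3 JNK genes differed in their lists. Mapk8 (JNK1) had no WT peak and 1 KO peak, chr14:33383930-33387265, of 180 bases over 3 blocks, and was the only member of the 13 with a KO peak to have none in WT. That is 7.69% of them (1.37 to 33.3), against 27.8% of all genes with a KO peak. Mapk9 (JNK2) had 2 WT peaks of 91 bases and Mapk10 (JNK3), the neuronal form, 2 of 61 and 151 bases, and neither had a KO peak. Mapk3 (ERK1) had no peak. Of the p38 genes, Mapk11 had 1 peak of 120 bases, while Mapk12, Mapk13 and Mapk14 had none. Mapk15 and the kinases that act after p38, Mapkapk2, Mapkapk3 and Mapkapk5, had no peak in either list.

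The JNK-interacting proteins are scaffolds that bind kinases of the JNK pathway and also link cargo to kinesin in axons. Mapk8ip1, Mapk8ip2 and Mapk8ip3 had 2 WT peaks and 1 KO peak each, and Spag9, which encodes JIP4 and lies outside the name rule, had 1 WT peak and none in KO. Mapk8ip2 (JIP2) had the widest retained peak of any member, chr15:89457297-89458287, of 991 bases, but its KO peak, chr15:89458107-89458227, covered 121 of these, or 12.2%. In Mapk8ip3 (JIP3), the retained peak chr17:24905204-24906931 had 300 bases in 3 blocks, of which a KO peak of 120 bases in 2 blocks, chr17:24906172-24906871, covered 40.0%. In both genes the KO peak was weak, stronger than 24.9% and 15.4% of the KO list. In Mapk8ip1 (JIP1), the WT peaks of 61 and 508 bases were not retained, and the KO peak, of 180 bases in 2 blocks from 92389104 to 92391038 on chromosome 2, lay 1866 bases upstream of the nearer one in the direction of transcription. Mapk1ip1l, which shares only the prefix of its name with the cascade, had 1 WT peak of 330 bases.

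**Figure D2:**
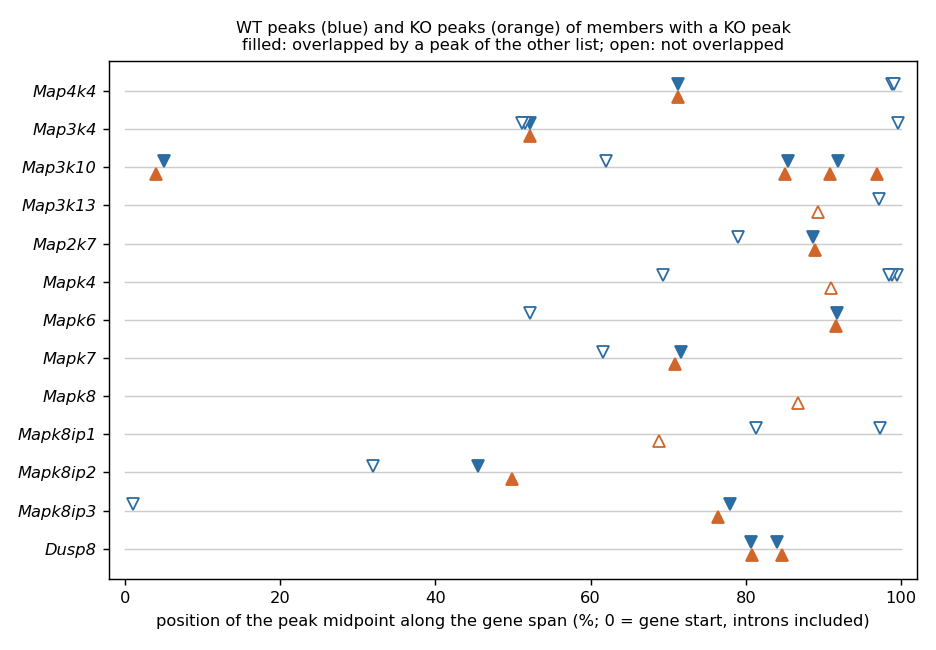
Midpoints of WT peaks (blue, pointing down) and KO peaks (orange, pointing up) along the gene span (x axis, percent from gene start to gene end, introns included) for the 13 genes with a KO peak. Filled marks are overlapped by a peak of the other list. The KO marks of Map3k13, Mapk4 and Mapk8ip1 are open and lie away from the WT marks, and Mapk8 has no WT mark.

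The DUSP genes carried 20 WT peaks in 12 of 24 protein-coding genes, and KO peaks in 1 of them. Dusp8 encodes a phosphatase directed at JNK and p38. It was the only one of the 23 members with 2 or more WT peaks to keep all of them, 4.35% (0.772 to 21.0), whereas 1.51% of all genes with 2 or more WT peaks did so. Its WT peaks on chromosome 7, minus strand, were chr7:142081911-142082300 with 390 bases and chr7:142082360-142082958 with 599, and just 59 bases separated them. A KO peak of 210 bases began on the same base as the first, and another of 211 bases lay inside the second. They covered 53.8% and 35.2%, so that 1 of the 2 WT peaks counted as retained where 50% of it had to be covered. Likewise 1 was retained when only the 3673 strongest WT peaks were used, or without KO peaks at a nonzero p-value found on 20 or more of them, and 0 when both lists were reduced to their stronger 50%. The first KO peak was strong, ahead of 84.9% of the KO list, and the second was not, ahead of 29.5%, with a p-value that recurs on 22 KO peaks. Dusp16, the other gene of this class with a peak, had 1 WT peak of 120 bases, chr6:134717919-134718038 on the minus strand, and Dusp10 had none.

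The inducible nuclear phosphatases, which are early feedback genes of ERK signalling, lacked KO peaks. None of their 4 WT peaks was retained, with an interval of 0 to 49.0% that holds the 12.9% of all WT peaks. Dusp1 had 1 WT peak, of 180 bases, and Dusp4 1 of 271 bases, chr8:34818696-34818966 on the plus strand. Dusp5 had 2 of 119 and 180 bases, both close to the gene end, chr19:53541185-53541303 and chr19:53541422-53541601 on the plus strand. In strength, these WT peaks were ahead of 12.87% (Dusp1), 73.8% (Dusp4), and 18.6% and 9.25% (Dusp5) of the WT list. Dusp2 had no peak. The Dusp1 peak, chr17:26508293-26508472 on the minus strand, was the only member peak that reached the first base of its gene. It covers the first 50 transcribed bases as RefSeq places the start in GRCm38, and these can be read from the promoter table. Mapk8ip3 had a WT peak of 718 bases in 5 blocks whose first block begins at base 31 of the transcript, so that bases 31 to 50 can be read too. The first 30 bases of the Dusp1 stretch, which hold its GGACT, and the whole Mapk8ip3 stretch are shown 5′ to 3′, on the strand of the gene, with any GGACT in capitals.
Dusp1, bases 1 to 30, chr17:26508443-26508472: agtgaaGGACTggcgggaggaaagcgcggt
Mapk8ip3, bases 31 to 50, chr17:24936928-24936947: gcacgtcctaaggtagcggc

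The Dusp1 stretch held GGACT at bases 7 to 11, and the Mapk8ip3 stretch held no GGAC. On the strand of the gene, GGACT was present in the first 50 bases of 8.53% of the 434 starts that lay wholly inside a WT peak of their gene, and in 5.76% of all 32851 starts in the table. On the other strand the shares were 4.15% and 4.87%. For the shorter core GGAC, which every GGACT includes, they were 24.0% and 18.9% on the strand of the gene and 16.1% and 17.4% on the other. The letters alone do not show which base was methylated. Sequences of the other member peaks were not used here.

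The cytoplasmic phosphatases directed at ERK were among the DUSPs with most peaks. Dusp6 had 3 WT peaks of 179, 210 and 179 bases spread from the gene start to 1309 bases before its end, and Dusp7 3 of 90, 91 and 299 bases. The strongest of each were chr10:99266091-99266269 and chr9:106374028-106374326, both on the plus strand and ahead of 63.4% and 68.6% of the WT list. None of these 6 peaks was retained, with an interval of 0 to 39.0% that holds the 12.9% of all WT peaks. Dusp9 had no peak. Among atypical DUSPs, Dusp26, which is enriched in brain, had 3 WT peaks of 150, 390 and 270 bases, of which the last 2, chr8:31096267-31096656 and chr8:31096746-31097015 on the plus strand, lay within 1000 bases of the gene end. Dusp3 had 1 of 299 bases, chr11:101973439-101973737 on the minus strand, stronger than 86.1% of the WT list, Dusp14 1 of 237, Dusp15 1 of 181 and Dusp18 1 of 61. No KO peak was listed for any atypical DUSP, and 9 of the 14 had no WT peak either. With 0 of their 7 WT peaks retained, the interval of 0 to 35.4% also holds the 12.9% of all WT peaks.

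DUSP genes had 2 of 20 WT peaks retained, 10% (2.79 to 30.1), and kinases and scaffolds 10 of 56, 17.9% (10 to 29.8). The intervals overlap broadly, and both hold the 12.9% of all WT peaks. Dusp8 alone, with its 2 peaks, makes up the whole of the DUSP share. The share of WT peak bases also found in KO peaks was 9.37% and 13.0%.

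KO peaks were mostly pieces of WT peaks. Of the 17 member KO peaks, 13 lay over a WT peak, 76.5% (52.7 to 90.4), where the background over all KO peaks is 57.1%. Of these 13, 10 lay wholly inside WT exonic bases, 76.9% (49.7 to 91.8), as did 76.4% of all KO peaks over a WT peak. A retained member peak had a median of 46.9% of its bases covered, from 12.2% in Mapk8ip2 to 100% in Mapk6, near the 50.2% over all retained peaks. Summed per gene, peak length was smaller in KO for 11 of the 12 members with peaks in both lists and equal in Map3k13. It went from 1229 to 628 bases in Map4k4, from 989 to 421 in Dusp8, from 629 to 300 in Map2k7, and from 2308 to 91 in Mapk4.

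**Figure D3:**
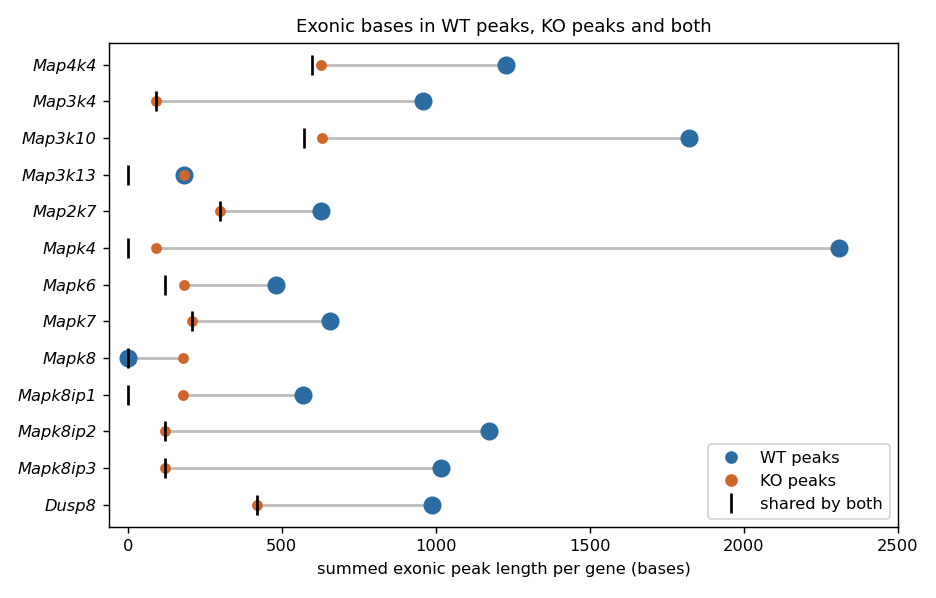
Summed exonic peak length in bases (x axis) for the 13 genes with a KO peak (y axis): WT peaks in blue, KO peaks in orange, and the bases shared by both as a black bar. The bar sits on the KO dot in 6 genes, where every KO base lies in a WT peak, and at 0 in Map3k13, Mapk4, Mapk8 and Mapk8ip1.

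Retained member peaks were wide and strong in WT, as they are in the lists as a whole, though the rule of 1 shared base itself favours width. Their median width was 464.5 bases (quartiles 343.5 and 664.8) against 180 (120 and 270.2) for the 64 others, and over all WT peaks the medians were 359 and 181. They were stronger than a median of 79.1% of the WT list, the others than 47.7%. Dusp8 kept both of its peaks. Of the other 8 genes with a retained peak, 6 had one as their strongest peak, 75% (40.9 to 92.9), all but Map3k4 and Mapk6, beside 64.3% of all genes with some but not every WT peak retained. With WT peaks in 5 classes of strength, 6 of 16 member peaks in the strongest class were retained, 37.5% (18.5 to 61.4), beside 31.0% of all WT peaks in it. In the following classes the members had 3 of 18, 2 of 13 and 1 of 10, and in the weakest 0 of 19, which allows a share of up to 16.8% by its interval, beside 3.54% of all. In every class the interval of the members held the share of all peaks.

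**Figure D4:**
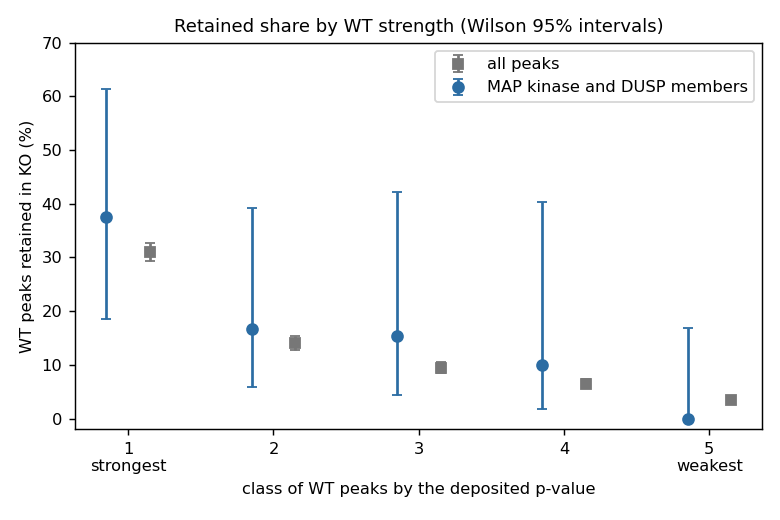
Share of WT peaks retained in KO (y axis, percent) in 5 classes of the deposited WT score, read as a p-value (x axis, strongest first), for members (blue circles) and all WT peaks (grey squares), with Wilson 95% intervals. Members go from 37.5% in the strongest class to 0 in the weakest, and each of their intervals holds the share of all peaks.

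Over all genes, the share with a retained peak was larger where there were more WT peaks. The members' shares, from few genes each, did not rise in order throughout, but every interval held the share of all such genes. None of the 18 members with 1 WT peak had it retained (interval 0 to 17.6%), where 10.5% of all such genes did. Of the 14 members with 2 peaks, 6 had a retained one, 42.9% (21.4 to 67.4), next to 22.7% of all such genes. Of the 6 members with 3 peaks, 1 had a retained one, 16.7% (3.01 to 56.4), beside 33.8% of all such genes. Of the 3 with 4 peaks, Map3k10 and Map3k4 had one, 66.7% (20.8 to 93.9), beside 46.0% of all genes with 4 or more. The median member had 2 WT peaks and the median gene 1, and no member had more than 4, where genes of the whole list had up to 15.

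Members' WT peaks lay late in their genes. Their midpoints had a median of 85.0% of the gene span (quartiles 52.2 and 96.7), against 82.4% for all WT peaks, and 14 of 76 lay within 1000 bases of the gene end, 18.4% (11.3 to 28.6), beside 16.5% of all. These 14 peaks belonged to 12 genes and none was retained (interval 0 to 21.5%), where 6.91% of all WT peaks in that window were, a share inside the interval. The window of 200 bases after the gene start held 4 midpoints, among them those of Dusp1, Dusp26 and Map2k1, and none of the 4 was retained, beside 11.9% of all WT peaks there. The classes rest on gene ends in RefSeq and do not tell untranslated from coding sequence. Peaks over 2 or more exonic blocks made up 13.2% of the members' WT peaks (7.31 to 22.6) and 23.5% of all WT peaks, whose share lies above that interval. Among the members' retained peaks, 5 of 12 had several blocks, 41.7% (19.3 to 68.0), beside 52.7% of all retained peaks, and among the others 5 of 64, 7.81% (3.38 to 17.0), beside 19.1%.

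Other genes of the pathway, taken from lists of genes that the name rule does not reach, held a WT peak in 78 of 114 genes and a retained peak in 18 of the 78, 23.1%, beside the background of 20.6%. Of their 149 WT peaks, 14.1% were retained. Among Ras, Raf and their regulators, 25 of 41 had a WT peak and 6 a retained one, including Hras (1 of 2 peaks), the Ras GTPase activator gene Nf1 (1 of 1), and Gab2 (1 of 3). The feedback inhibitor genes Spry2 and Spry4 had 3 WT peaks each and Shc3 had 4, with none in KO. A list of cascade kinases with other names also holds pseudokinase genes and the Tab genes for kinase-binding proteins. Of its 35 WT peaks, 8 were retained, 22.9%, beside 12.9% of all WT peaks. Retained peaks were found in 6 of its 14 genes with a WT peak, 42.9% (21.4 to 67.4), beside 20.6% of all such genes. These were Tnik (2 of 2 peaks) and Mink1 (1 of 2), which are close relatives of Map4k4, then Taok2 (2 of 8), Taok3 (1 of 2), Stk39 (1 of 1) and the pseudokinase gene Trib1 (1 of 2), while Tab2 and Trib2 had 4 WT peaks each and none in KO. The list of scaffolds and anchors, which also holds phosphatase genes, had a retained peak in 1 of 14. This was the neuronal phosphatase gene Ptpn5 (1 of 2 peaks), but not the scaffold genes Ksr1 or Ksr2, with 2 WT peaks each. Of the kinases downstream, 5 of 8 were in the WT list and 0 of these with retention, which allows up to 43.4% by the interval. Of the transcription factor genes, 20 of 29 had a WT peak and 5 a retained one, Jun (1 of 3), Jund, Egr1, Mef2d (1 of 1 each) and Mef2c (1 of 3). Fos had 1 WT peak, Junb and Ets2 3 each and Myc 5, and no KO peak.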

How the data were processed

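Per the submitters' processing notes, STAR and GRCm38 were used, while caller, cutoffs, gene models and the pooling of libraries are not stated there. The authors deposited 1 list per genotype, with a p-value (or q-value, which is not stated) and a count of exonic blocks for each peak. P-values served to rank peaks within a list. Nothing says that libraries of a genotype came from separate animals.

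Lists were processed in Python 3.11.15 with scipy 1.17.1. Starts were read as counted from 0 and are printed from 1. Entries of a list that shared exonic bases on a strand were merged, which took 15091 WT and 3733 KO entries to 15009 and 3673 peaks and changed none of the members' 76 and 17. Strength is the share of the list with a larger p-value. Gene spans and names came from RefSeq for GRCm38.p6, in which 42 of 42 members were found and 93 of 93 member peaks lay inside their gene. Promoter sequences came from RefSeq with the same build. Midpoints are those of the exonic bases. Overlap and merging were tested on simulated data.

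Members were named, except for results on some genes that are not reported here, with positions and values for retained peaks, KO peaks and the members with most peaks of each role (scores as ranks within the list, and some positions not printed). The members and lists were chosen with earlier results of these data known. No test was made, since each genotype has 1 list. Motifs inside peaks were not analysed apart from gene starts, since no genome sequence was used here.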

Additional observations from a re-analysis of the deposited data

How the results depend on the processing

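No paired analysis was possible because each deposited list pools its libraries, and for that reason no replicate could be left out either. Leaving entries unmerged, ignoring strand, and comparing whole spans changed none of the members' counts. Of the 41 comparisons of a main value with an alternative, 28 counted as unchanged. A share had to stay within its interval, a count within 1.5 times, and the median width between the quartiles of the members' widths (121 and 337 bases). By this wide rule a median width of 299.5 bases with the stronger 50% of each list, against 181, counted as unchanged. The share of WT peaks retained, 15.8%, was 7.89% when the overlap with 1 KO peak had to reach 50% of the WT peak, or of each peak (6.52% and 6.26% of all WT peaks). The share of KO peaks over a WT peak, 76.5%, was 35.3% under both. Map3k4, Mapk8ip2 and Mapk8ip3 then had no retained peak. With the stronger 50% of each list, 24 members had a WT peak and 4 a retained one (Map4k4, Map3k10, Map2k7 and Mapk7). Of their WT peaks 12.5% were then retained, beside 14.2% of all, 50% of KO peaks lay over a WT peak, and 10% of WT peaks lay near the gene end. With the WT list held to its strongest 3673 peaks, 14 members had a WT peak, 40.0% of their WT peaks were retained, beside 28.6% of all, and their median width was 374.5 bases against 181. The share near the gene end, 18.4%, was 5.26% with a window of 500 bases and 69.7% with 5000. Under the alternatives, the share over all peaks was computed for retained WT peaks only, so the other shares have no background beside them. Without KO peaks at nonzero p-values that 20 or more KO peaks share, a filter chosen after seeing the data, 8 members had a retained peak, without Map3k4, and 13.2% of WT peaks were retained, beside 11.7% of all.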

Other observations

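Peak numbers per gene count neighbouring peaks separately. Of the 35 pairs of neighbouring WT peaks within a member, 8 in 8 genes were at most 150 bases apart, 22.9%, beside 18.1% of all such pairs. They were in Map4k4 (58 bases apart), Mapk4 and Dusp8 (59 each), Dusp26 (89), Dusp5 (118), Mapk7 (119), Dusp7 (147) and Map2k4 (148). In Dusp8 both peaks of the pair were retained, in Mapk7 1 of the pair, and in the other 6 genes neither. Over all 1337 such pairs, both were retained in 3.81%, 1 in 16% and neither in 80.2%, and each share lay inside the interval of the 8 member pairs (2.24 to 47.1%, 2.24 to 47.1% and 40.9 to 92.9%). The distance of 150 bases was chosen after its values were seen.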
